A study of Mus musculus with 2 samples.

Results

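The myeloid genes described here are 41 marker genes of the innate leukocytes that live in or pass through the vaginal wall, measured in whole vagina of WT and *Fbln5-/-* mice. They were taken by name from a list of 12 macrophage genes, 6 Langerhans and dendritic cell genes, 7 neutrophil genes, 9 mast cell genes and 7 genes shared by several myeloid cells. A probe set was used only where the platform annotation gave it exactly 1 of these genes, which left 65 of the 45101 probe sets on the array. Fibulin-5, the protein that *Fbln5-/-* mice lack, is a matrix protein needed for elastic fibre assembly, and these mice develop prolapse of the pelvic organs. Both genotypes were C57/Bl6 females with a labelled age of 6 months, ovariectomized and then given estradiol at 50 µg/kg/d for 3 d. The sample labels put ovariectomy at 11 d, and the series description puts it at 2 weeks. The methods of the study name 2 animals in each group, 1 array per genotype was analysed here, and whether an array held RNA of 1 animal or of both is not stated. No difference between the genotypes therefore has a replicate check, and no p-value or error between animals exists for any value given here.

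Macrophages engulf debris and microbes through scavenger, lectin and Fc receptors, and in most tissues they depend on the receptor CSF1R for survival. Langerhans cells are antigen-presenting cells of stratified epithelium, dendritic cells carry antigen to lymph nodes, neutrophils enter from blood with preformed granule proteins, and mast cells store chymases, tryptases and histamine beside vessels. The vaginal mucosa is a tissue in which leukocyte numbers are known to follow estrogen, and both genotypes were given the same hormone treatment.

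Signals are the MAS5 intensities of the authors, scaled here so that both arrays had the same median. A gene counts as measured when a probe set reached a signal of 100 on at least 1 array, and it is represented by its brightest probe set, taken by the mean of both arrays. Of the 41 genes, 35 were measured, through 48 probe sets. Over all 11934 measured genes of the array, 861 (7.21%) were at least 2-fold higher in *Fbln5-/-* and 569 (4.77%) at least 2-fold lower. A scaling that put the middle ratio of well-measured probe sets (100 or more on each array) at 1 turned this split to 679 and 698 and moved the median log2 ratio of all genes from 0.16 to 0.05. The targeted gene *Fbln5* read 410.4 in WT and 30.4 in *Fbln5-/-*. Control probe sets differed along the transcript: the *Gapdh* log2 ratio was 0.05 for the 3′ probe set, −1.16 for the middle one and −4.44 for the 5′ one. For *Actb* (actin) these ratios were −0.18, −1.22 and −1.87. The part this had in lower values was not tested. As to the labelled organ, all 15 epithelial markers and all 6 fibroblast markers were measured, with *Krt13*, the suprabasal keratin of vaginal epithelium, at 19999 and 21197.

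Among the 35 measured myeloid genes, 8 (22.9%) were at least 2-fold higher in *Fbln5-/-* and 3 (8.57%) at least 2-fold lower, beside backgrounds of 7.21% and 4.77%. The higher genes were *Mrc1*, *Fcgr3*, *Cd163*, *Cd14*, *Clec7a*, *Lcn2*, *Trem1* and *Tpsab1*, and the lower genes were *Cd209a*, *Camp* and *Ngp*. Of these 11, *Trem1* and *Tpsab1* were under 100 on the WT array and the lower 3 were under 100 on the *Fbln5-/-* array, so each of the 5 could differ in 1 direction only. With signals under 100 set to 100, 8 were higher and 1 was lower, against 5.80% and 3.95% of all genes. Among the 29 myeloid genes at 100 or more on both arrays, 6 were higher and 0 lower, against 5.26% and 3.59% of all such genes. Among the genes at 100 or more on both arrays, *Clec7a* (2.23-fold), *Lcn2* (2.27-fold) and *Cd14* (2.29-fold) were nearest to the 2-fold threshold inside it. Outside it these were *Epcam* (1.99-fold), *Ncf4* (1.99-fold) and *Fcer1g* (1.79-fold). The median log2 ratio of the 35 was 0.46, beside 0.16 for all measured genes. In whole tissue, more cells of a type and more RNA per cell cannot be told apart.

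**Figure D1:**
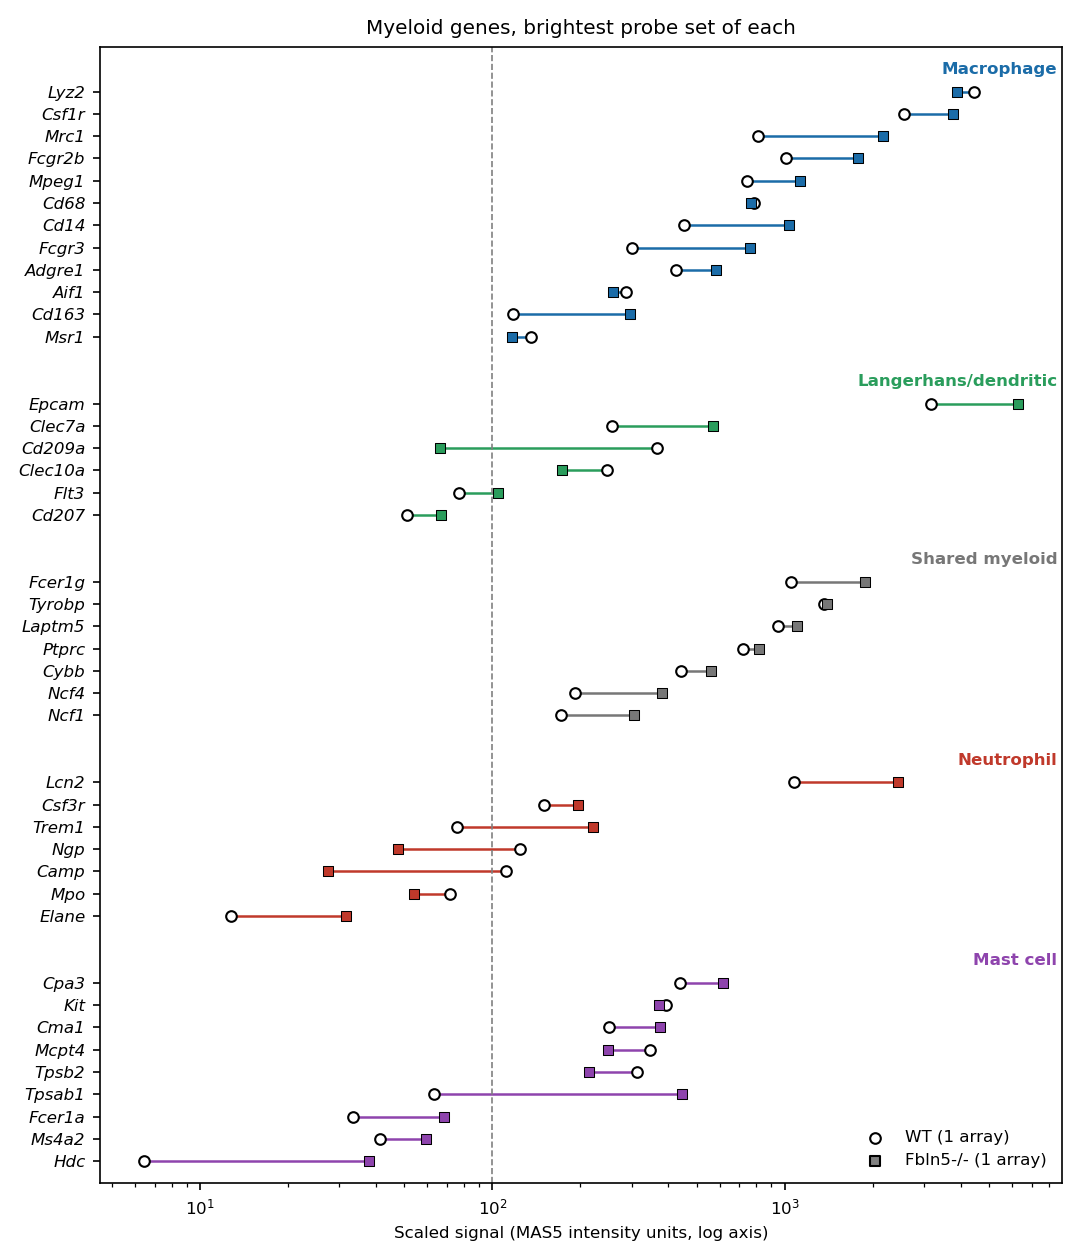
Scaled signal (MAS5 intensity, log axis) of the brightest probe set of each of the 41 myeloid genes on the WT array (open circles) and the *Fbln5-/-* array (filled squares), 1 array each, grouped by cell type, with a dashed line at 100. *Mrc1* runs from 810.8 to 2175, *Tpsab1* crosses the line upward (63.3 to 446.7), and *Cd209a*, *Ngp* and *Camp* cross it downward.

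All 12 macrophage genes were measured at 100 or more on both arrays. Of these, 4 surface receptors were at least 2-fold higher in *Fbln5-/-*, none of the 12 was 2-fold lower, and the median log2 ratio was 0.58. *Mrc1*, the mannose receptor (CD206) of tissue-resident macrophages, read 810.8 in WT and 2175 in *Fbln5-/-* (2.68-fold). *Cd163*, the scavenger receptor that clears haptoglobin bound to haemoglobin, read 117.3 and 295.0 (2.52-fold), so its WT value lay just above the limit of 100. *Cd14*, the co-receptor for lipopolysaccharide, read 451.9 and 1033 (2.29-fold). These receptors each rest on 1 probe set.

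Of the IgG receptors among the macrophage genes, 1 passed 2-fold. *Fcgr3*, an activating receptor, read 300.1 and 763.1 (2.54-fold), and *Fcgr2b*, the inhibitory receptor, had 1009 and 1778 (1.76-fold) at its brightest probe set. The other 3 measured *Fcgr2b* probe sets gave 1.88-fold, 2.41-fold and 1.98-fold, so that all 4 probe sets above the limit were higher and 1 passed 2-fold. *Fcgr2b* and *Fcgr3* are related genes, and whether their probes share targets was not tested. *Fcer1g*, the signalling chain that activating Fc receptors need, read 1054 and 1888 (1.79-fold). Of the other IgG receptors, *Fcgr1* was lower at both probe sets, with 245.7 and 137.4 and with 120.4 and 89.3, and *Fcgr4* had 98.8 and 178.2. These 2 were named after their values were seen.

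The general macrophage markers did not move by 2-fold. *Csf1r*, the receptor for CSF1 and IL-34, read 2552 and 3771 (log2 ratio 0.56), with log2 ratios of 0.68 and −0.18 at its other 2 probe sets. *Mpeg1*, a pore-forming protein of phagocytes, had 743.3 and 1130.4 (log2 ratio 0.60), and *Adgre1*, which encodes F4/80, had 423.4 and 582.2 (0.46). *Cd68*, a lysosomal glycoprotein, had 783.4 and 769.7. *Lyz2*, lysozyme M, had 4455 and 3894 and has a close copy in the genome, and *Aif1*, which encodes IBA1, had 286.3 and 258.4. *Msr1*, scavenger receptor A, had 136.0 and 116.7, with a second probe set also lower (144.3 and 101.8). Of the 12 macrophage genes, 8 thus lay above 0 and 4 below at the brightest probe set. The receptors *Mrc1*, *Cd163*, *Cd14* and *Fcgr3* stood highest, above *Fcgr2b* (0.82), *Mpeg1*, *Csf1r* and *Adgre1*. *Cd68*, *Lyz2*, *Aif1* and *Msr1* lay between −0.22 and −0.03 at that probe set.

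**Figure D2:**
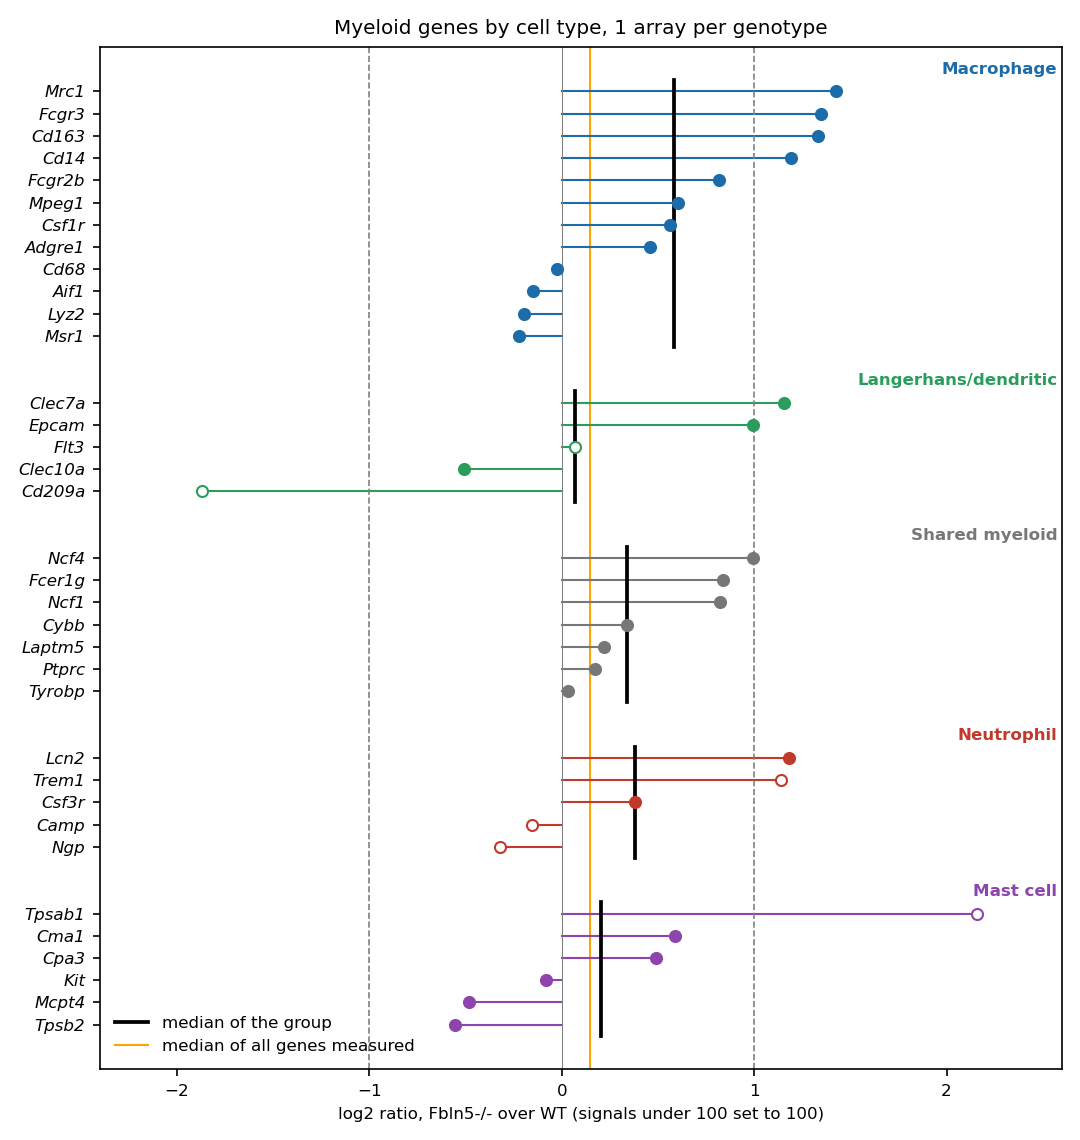
Log2 ratio (*Fbln5-/-* over WT) of the 35 measured myeloid genes, with signals under 100 set to 100. Filled points are at 100 or more on both arrays and open points are bounds, black bars are group medians (0.58 for macrophage genes), the orange line is the median of all measured genes (0.15) and dashed lines mark 2-fold. *Mrc1*, *Fcgr3*, *Cd163* and *Cd14* lead the macrophage genes, and *Cd209a* is the 1 gene past 2-fold on the lower side.

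Promoter stretches are shown for higher receptors and *Lcn2*, because their windows hold the letters GAGGAA, a form of the PU box bound by PU.1, a transcription factor that myeloid genes are known to depend on. RefSeq windows (GRCm38.p6) were available for 32 of the 41 genes, and the 250 bases before each start were searched on both strands. The letters were present for 15 of 32 myeloid genes, or 18 of 36 windows (50.0%), and in 23.3% of all 32851 windows. By cell type this was 4 of 8 macrophage genes, 2 of 5 Langerhans and dendritic genes, 2 of 5 shared genes, 5 of 7 neutrophil genes and 2 of 7 mast cell genes. Capitals mark the match, and TTCCTC is the same letters on the opposite strand.
*Fcgr3* (chr1:171059404-171059434, minus strand, ending at the base before a start): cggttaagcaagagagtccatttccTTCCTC
*Mrc1* (chr2:14229354-14229409, plus strand): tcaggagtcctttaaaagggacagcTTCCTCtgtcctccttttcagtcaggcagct
*Clec7a* (chr6:129472845-129472900, minus strand): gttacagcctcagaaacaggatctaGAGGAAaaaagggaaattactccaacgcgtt
*Trem1* (chr17:48232552-48232607, plus strand): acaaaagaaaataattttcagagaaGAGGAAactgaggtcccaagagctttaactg
*Lcn2* (chr2:32387740-32387784, minus strand): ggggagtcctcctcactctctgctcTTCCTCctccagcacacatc
The *Fcgr3* stretch also holds TTNNGCAA, a C/EBP pattern, apart from the capitals. The windows of *Cd163*, *Cd209a*, *Camp* and *Ngp* did not hold these letters, which says nothing of the factor elsewhere at those genes. For *Cd14* and *Tpsab1*, which were also higher, no stretch is shown. The genes named are therefore not a full tally of higher against lower genes. The pattern TTNNGCAA of C/EBP factors was found in 5 of the 32 genes, or 6 of 36 windows (16.7%), and in 9.56% of all windows. AGATAA of GATA factors was found in 7 of 32 genes, or 7 of 36 windows (19.4%), and in 9.99% of all windows. *Ngp*, a granule gene, held TTNNGCAA beside its start, shown for the lower side (chr9:110419772-110419807, plus strand): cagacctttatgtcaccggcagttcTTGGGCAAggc
The transcript for PU.1 itself, *Spi1*, read 310.9 in WT and 146.9 in *Fbln5-/-* (2.12-fold lower, 1 probe set). *Cebpa*, a factor of myeloid and epithelial cells, had 3599 and 4206. *Cebpb*, another C/EBP factor, had 4685 and 4500 at its brightest probe set but 1569 and 126.8 (12.4-fold lower) at the other. These matches are a description of letters, not of binding.

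Langerhans and dendritic genes did not share a direction: of 5 measured of 6, 1 was at least 2-fold higher and 1 lower, with a median log2 ratio of 0.45. That median is the ratio of *Flt3*, which was under 100 in WT, and it was 0.07 with signals under 100 set to 100 and 0.99 over the 3 genes at 100 or more on both arrays. *Cd209a*, a DC-SIGN homolog of dendritic cells, read 365.0 in WT and 66.3 in *Fbln5-/-*, at least 3.65-fold lower. *Clec7a*, the β-glucan receptor dectin-1, had 255.8 and 570.0 (2.23-fold higher). *Clec10a*, a galactose-binding lectin of dendritic cells and macrophages, had 246.4 and 173.1 (log2 ratio −0.51). Of these 3 lectins, *Cd209a* and *Clec10a* were lower and *Clec7a*, which macrophages and neutrophils also carry, was higher. Lectins of the further dendritic list, *Clec4n* (218.1 and 319.8) and *Clec4a2* (239.3 and 267.5), were higher within 2-fold at their brightest probe sets. Lectins as a group thus did not share a direction.

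The defining marker of Langerhans cells was not measured. *Cd207*, which encodes langerin, read 51.1 and 66.5, under the limit on both arrays, so no fold is given. *Epcam*, an adhesion molecule of Langerhans cells that epithelium also makes, had 3159 and 6290.2 (1.99-fold) and 951.8 and 2242 (2.36-fold) at a second probe set. *Epcam* is counted among the Langerhans and dendritic genes above, although its signal cannot be told apart from that of epithelium. On the same arrays 1 of 15 epithelial markers was 2-fold different at its brightest probe set, *Cldn4*, a tight junction protein (3.27-fold lower). *Krt14* had a log2 ratio of 0.52. Less bright probe sets of *Dsp* (at least 35.7-fold lower) and *Trp63* (2.78-fold and at least 2.86-fold lower) also passed 2-fold. *Flt3*, the receptor of dendritic precursors, had 76.9 and 104.8, at least 1.05-fold higher.

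Genes shared by myeloid cells were all measured at 100 or more on both arrays, with 0 past 2-fold. At the brightest probe set all 7 had log2 ratios above 0, from 0.03 to 0.99, although that of *Tyrobp* lay below 0 under each of the 4 other scalings (−0.0714 to −0.0162). *Ptprc*, which encodes the leukocyte antigen CD45, read 722.1 in WT and 815.5 in *Fbln5-/-* (log2 ratio 0.18), close to the median of all genes. *Tyrobp*, the adaptor DAP12, had 1365 and 1398 (0.03). The phagocyte oxidase, which makes superoxide, was represented by *Cybb* (gp91phox), *Ncf1* (p47phox) and *Ncf4* (p40phox). *Ncf4* had 191.1 and 380.7 (1.99-fold), just short of 2-fold, and *Ncf1* had 172.3 and 304.4 (1.77-fold). The other *Ncf1* probe sets were lower, but under 100 on both arrays (72.8 and 34.3, and 49.4 and 36.9). *Cybb* had 440.5 and 558.2, and its 2 other probe sets were lower (309.0 and 270.6, and 106.6 and 83.5). At the brightest probe sets, the cytosolic subunits *Ncf1* and *Ncf4* thus had larger ratios than the membrane subunit *Cybb*. Neither the probe sets of *Cybb* nor those of *Ncf1* all shared a direction.

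*Laptm5*, a lysosomal membrane protein of blood cells, showed how far probe sets of 1 gene can part. Its brightest probe set had 947.3 and 1101 (log2 ratio 0.22), while the next had 1309 and 641.3 (−1.03). One more had 206.8 and 91.0, at least 2.07-fold lower, and the last measured had 54.7 and 115.0, at least 1.15-fold higher. No direction can be given for this gene. Of the 7 myeloid genes with several measured probe sets, *Fcgr2b*, *Msr1*, *Epcam* and *Kit* had all probe sets on the same side of 0, and *Csf1r*, *Laptm5* and *Cybb* did not.

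**Figure D3:**
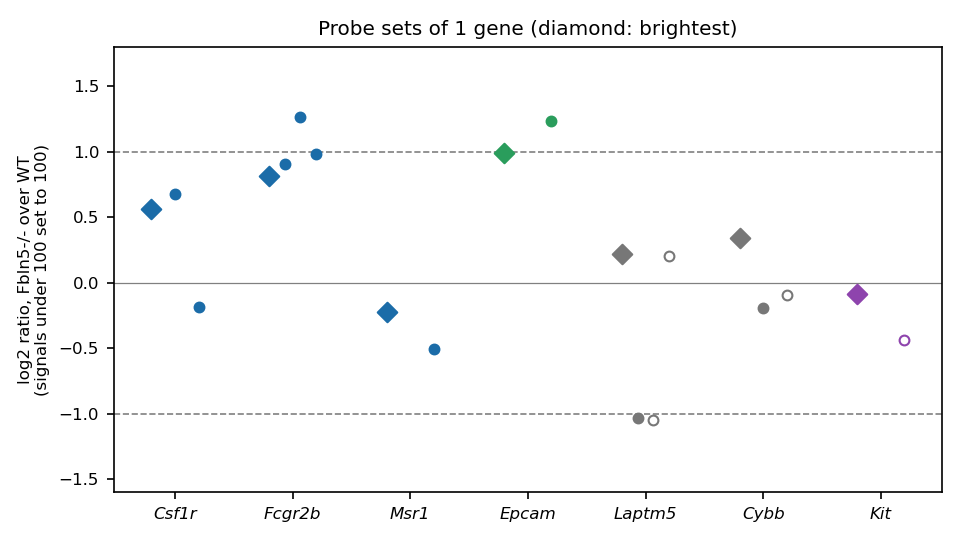
Log2 ratio (*Fbln5-/-* over WT, signals under 100 set to 100) of every measured probe set of the 7 myeloid genes that have several. Diamonds are the brightest probe set, open symbols are bounds and dashed lines mark 2-fold. The 4 probe sets of *Fcgr2b* lie between 0.82 and 1.27, and those of *Laptm5* spread from −1.05 to 0.22.

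Of 7 neutrophil genes 5 were measured, but 3 of them reached 100 on 1 array only: *Camp* and *Ngp* could only be lower and *Trem1* could only be higher. As measured, 2 were at least 2-fold higher and 2 lower (0 lower with signals under 100 set to 100). The 2 genes at 100 or more on both arrays, *Lcn2* and *Csf3r*, had log2 ratios of 1.18 and 0.38. The median log2 ratio of 0.38 turned to −0.50 without probe sets that can match several transcripts. *Lcn2*, lipocalin 2, an iron-sequestering protein of neutrophil granules and of inflamed epithelium, read 1076 in WT and 2439.9 in *Fbln5-/-* (2.27-fold). *Trem1*, a receptor that amplifies inflammatory signals in neutrophils and monocytes, had 75.6 and 220.4, which is at least 2.20-fold, while its other probe set was under 100 on both arrays. *Csf3r*, the G-CSF receptor, had 150.4 and 196.1 (log2 ratio 0.38). Of the other granule genes, *Camp* and *Ngp* were just above 100 in WT, and *Mpo* and *Elane* were under it on both arrays. *Camp*, which encodes the antimicrobial peptide cathelicidin, had 111.2 and 27.4, at least 1.11-fold lower. *Ngp*, neutrophilic granule protein, had 124.7 and 47.5, at least 1.25-fold lower. *Mpo*, myeloperoxidase, had 71.9 and 53.9, and *Elane*, neutrophil elastase, had 12.7 and 31.6, so no fold is given for either. These 4 granule genes were all under 100 on the *Fbln5-/-* array, *Mpo* and *Elane* in WT as well. Further granule genes did not share a direction. *Pglyrp1* had 1957 and 3453 and *Mmp9* 79.0 and 137.4, while *Mmp8* (28.8 and 91.3) and *Prtn3* (35.5 and 13.3) were under 100 on both arrays. *Lcn2* and *Trem1* are known from other cells as well, and which cells gave these signals was not tested.

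Globin signals, which come from red blood cells, were lower on the *Fbln5-/-* array. Of 15 probe sets annotated to globin genes, 5 were measured, all 5 were lower in *Fbln5-/-* and 4 were at least 2-fold lower as measured. The brightest probe set, annotated to both adult α-globin genes, read 8525 in WT and 3095 in *Fbln5-/-* (2.75-fold lower), and the β-globin probe set had 2951 and 1024 (2.88-fold lower). The globin probe sets were looked at after the myeloid values were seen. *Camp* and *Ngp* were lower beside them, and whether blood content had a part in those values was not tested. *Hp*, haptoglobin, whose complex with haemoglobin *Cd163* binds, had 169.7 and 496.5 (2.93-fold higher).

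Mast cell genes were measured for the granule enzymes and *Kit*, but not for *Fcer1a* and *Ms4a2* of the IgE receptor. Of 6 measured of 9, 1 was at least 2-fold higher and 0 lower, and the median log2 ratio of 0.20 turned to −0.0827 over the genes at 100 or more on both arrays. *Cpa3*, carboxypeptidase A3, read 438.3 in WT and 614.7 in *Fbln5-/-* (log2 ratio 0.49), and *Cma1*, a chymase, had 249.6 and 375.3 (0.59). *Mcpt4*, the other connective tissue chymase, had 347.0 and 248.6 (−0.48). The chymases thus lay on opposite sides of 0, each within 2-fold. *Kit*, the receptor for stem cell factor, had 393.6 and 371.6 (−0.08), and 135.6 and 46.2 at a second probe set, at least 1.36-fold lower. The receptor subunits *Fcer1a* (33.3 and 68.3) and *Ms4a2* (41.2 and 59.1) and the histamine enzyme *Hdc* (6.42 and 37.9) were under 100 on both arrays.

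The tryptases parted most. *Tpsab1* (mast cell protease 7) read 63.3 in WT and 446.7 in *Fbln5-/-*, at least 4.47-fold higher and the 1 myeloid gene past 3-fold on the higher side. *Tpsb2* (mast cell protease 6) had 313.3 and 213.7 (log2 ratio −0.55), and its other probe set was under 100 on both arrays. These neighbouring genes are close copies, and signal assigned to either is uncertain where their probes share targets. C57BL/6 mice are known to carry a disrupted *Tpsab1* gene, and which allele these animals carried was not analysed here. *Mcpt2*, a mucosal mast cell protease, had 13.5 and 219.9, at least 2.20-fold higher, and *Mcpt1* had 9.72 and 93.1, under 100 on both arrays.

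Of 23 further macrophage genes measured, 4 (17.4%) were at least 2-fold higher and 5 (21.7%) lower, beside 7.21% and 4.77% of all genes, with a median log2 ratio of 0.14. *Chil3*, the chitinase-like protein Ym1, read 222.3 in WT and 2912 in *Fbln5-/-* (13.1-fold higher), and close copies of this gene exist. *Cd36*, a lipid scavenger receptor that fat cells also carry, was higher at 189.0 and 601.7, and *Retnla* at 630.9 and 1982. *Lyve1*, a hyaluronan receptor of some tissue macrophages and of lymphatic vessels, was 2.24-fold higher at its brightest probe set and 1.72-fold at the other. *Apoe*, a lipid carrier that macrophages make, was 2.58-fold lower (4877 and 1890). *Arg1*, an arginase that epithelium can make too, had a log2 ratio of 0.33.

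At the probe sets measured, partner chains did not share a direction among the further macrophage genes. *C1qa* read 1847 and 184.3 (10.0-fold lower), while its partner chains *C1qb* and *C1qc* in complement C1q had log2 ratios of 0.14 and −0.33. *Itgam* (CD11b) had 433.8 and 76.4, at least 4.34-fold lower, while its β-chain partner *Itgb2* had 404.4 and 730.4 (0.85). *Trem2*, a lipid receptor that signals through *Tyrobp*, had 291.6 and 62.4, at least 2.92-fold lower. *Coro1a*, an actin regulator of leukocytes, was 4.60-fold lower at its brightest probe set and had a log2 ratio of −0.08 at the next. *C1qa*, *Itgam* and *Trem2* each rest on 1 measured probe set. Where these probes lie along the transcripts was not examined. The *Gapdh* control had log2 ratios of 0.05 at the 3′ and −4.44 at the 5′ probe set. The part of such a loss in these lower values was not tested.

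Of 13 further neutrophil genes measured, 6 (46.2%) were at least 2-fold higher and 1 (7.69%) lower, beside 7.21% and 4.77% of all genes. Their median log2 ratio was 0.82, beside 0.16 for all genes. With signals under 100 set to 100, 5 were higher and 1 lower, against 5.80% and 3.95% of all genes. The median was then 0.46, beside 0.15. *Chil1*, *Fpr2* and *Mmp9* were under 100 on the WT array, so each could only be higher. Among the 10 genes at 100 or more on both arrays, 4 (40%) were higher and 1 (10%) lower, against 5.26% and 3.59% of all such genes. Their median log2 ratio was 0.58, beside 0.15. *S100a8* and *S100a9*, the subunits of calprotectin, were 3.65-fold and 2.91-fold higher, and both are also made by stratified epithelium. *Fpr2*, a formyl peptide receptor, was at least 2.07-fold higher, *Il1r2*, the interleukin-1 decoy receptor, was 3.59-fold lower, and *Ltf*, lactoferrin, had 14452 and 15164. *Cxcr2*, the chemokine receptor of circulating neutrophils, had 8.27 and 14.4. Of 8 further dendritic genes, 1 (12.5%) was higher (*Cd1d1*, 2.29-fold) and 1 (12.5%) lower (*Bst2*), beside 7.21% and 4.77% of all genes. *Itgax* (CD11c) had 204.2 and 325.6. Of 15 further phagocyte genes, 0 were higher and 1 (*Spi1*, 6.67%) was lower. Of 8 further mast cell genes, *Mcpt2* (12.5%) was the 1 past 2-fold. Each of these shares above 0 rests on 1 gene and is not read as a difference from all genes.

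Of 13 growth factors, their receptors and regulators measured, 2 (15.4%) were at least 2-fold higher and 1 (7.69%) lower, beside 7.21% and 4.77% of all genes. With signals under 100 set to 100, 2 were higher and 0 lower, against 5.80% and 3.95% of all genes. *Csf2rb* and its copy *Csf2rb2*, the β-chains for GM-CSF and interleukin-3, had 444.2 and 1209 (2.72-fold) and 246.9 and 512.9 (2.08-fold), although a second *Csf2rb* probe set had a log2 ratio of −0.08. *Csf1*, the macrophage growth factor, had 438.4 and 514.6 at its brightest probe set but 237.2 and 92.0 at another, at least 2.37-fold lower, so its probe sets did not share a direction. *Il34*, the factor Langerhans cells need, had 140.6 and 68.8, at least 1.41-fold lower. *Kitl*, stem cell factor, had 725.5 and 1301 (log2 ratio 0.84), *Csf3* had 466.6 and 428.8, and *Il33*, an epithelial alarmin that activates mast cells, had 5998 and 7218.

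**Figure D4:**
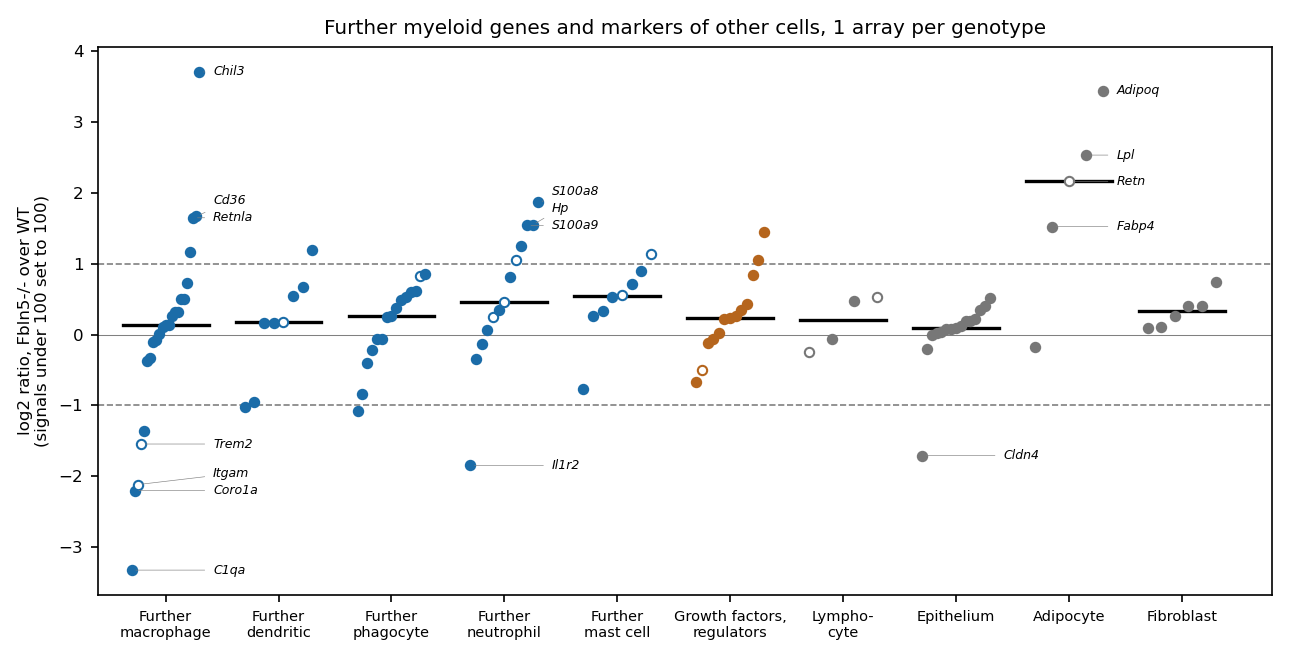
Log2 ratio (*Fbln5-/-* over WT, signals under 100 set to 100) of further genes of myeloid cells (blue), growth factors and regulators (brown) and markers of other cells (grey). Black bars are list medians, open points are bounds, dashed lines mark 2-fold, and genes at or beyond 1.5 are named. *Chil3* (3.71) and *C1qa* (−3.33) mark the ends of the macrophage list, and the adipocyte list has a median of 2.17.

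Markers of other cells were read on the same arrays. Of 5 adipocyte markers measured, 4 (80%) were at least 2-fold higher in *Fbln5-/-* and 0 lower, beside 7.21% and 4.77% of all genes. Among the higher ones were *Adipoq* (104.1 and 1131) and *Lpl* (644.5 and 3740). The summed signal of the 8 adipocyte markers with a probe set was 3072 for WT and 11438 for *Fbln5-/-*, with *Adipoq* near the limit of 100 on the WT array. Fat holds macrophages rich in *Mrc1* and *Cd163*, and whether the added fat signal had a part in the macrophage receptors was not tested. Lymphocyte markers were measured for 4 of 10 genes, with summed signals of 649.1 and 841.1. *Cd3e*, of the T cell receptor complex, had 118.8 and 76.1, and *Cd79a*, of the B cell receptor, had 7.78 and 144.0. Of 6 basophil and eosinophil markers none reached 100, and of 7 melanocyte markers, which bear on *Kit*, *Mitf* and *Sox10* were measured at log2 ratios of 0.90 and 0.78.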

How the data were processed

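RNA of whole vagina from 1 WT and 1 *Fbln5-/-* sample was measured on Affymetrix mouse expression arrays. The authors deposited MAS5 signal intensities on a linear scale (no version of MAS5 is given in the sources used here), already scaled to a trimmed mean of 500.0 per array. From these, each array was brought to the same median (factors 0.972 and 1.03), after the 50th percentile step of the methods, and 1 zero in WT was replaced by 0.1. Probe sets under 100 on both arrays were left out, as in the methods, and detection calls were not used. Of 45101 probe sets, 34958 had 1 gene in the annotation, 932 several and 9211 none, and 34754 names matched the GRCm38.p6 gene table. A gene was represented by its brightest probe set past the filter, and log2 of *Fbln5-/-* over WT was taken. A fold with 1 array under 100 is a bound against 100. With 1 array per genotype no test was made, and the number of arrays limits the precision.

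The members and lists were chosen with earlier results of these data known. Named were all members, the array controls and, per further list, up to 6 genes past 2-fold and up to 4 of the brightest others, while other genes of those lists were chosen after their values were seen. Alternatives were 4 scalings, 4 filters, a floor, an offset of 32, other probe set rules and a 3-fold threshold. The steps were tested on simulated data. Python 3.11.15, numpy 2.4.6, pandas 2.3.3 and matplotlib 3.10.9 were used.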

Additional observations from a re-analysis of the deposited data

How the results depend on the processing

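The count of myeloid genes at least 2-fold higher was 8 under each of the 4 other scalings and between 6 and 11 under the other filters and probe set rules, and 1 at a 3-fold threshold. The count at least 2-fold lower, 3 as reported, was 1 with a filter of 200, 0 at 100 or more on both arrays and 1 with a floor of 100. A rule chosen after seeing the data, that every measured probe set of a gene pass 2-fold, could not change the counts, since each of the 11 genes has 1 measured probe set. The median log2 ratio of the neutrophil genes, 0.38 as reported, turned to −0.0165 with a filter of 50 and to −0.50 without _x_at, _s_at and _a_at probe sets, and was 1.36 with a filter of 200. That of the mast cell genes, 0.20, turned to −0.0827 at 100 or more on both arrays, and that of the Langerhans and dendritic genes, 0.45, was 0.99 there (the value of *Epcam*), 0.07 with the floor and 0.24 with a filter of 200. These filters change which genes are measured. The macrophage median lay between 0.48 and 0.60 under all alternatives, and the shared median between 0.18 and 0.83. All 11 genes past 2-fold kept their sign wherever they were measured, and *Camp* and *Ngp* did not reach 2-fold with the floor (−0.15 and −0.32), nor did *Ngp* with 32 added (−0.98). Moves were read against the pooled SD between probe sets of a gene (0.52), which holds no variation between animals. No paired analysis was possible because each genotype has 1 array. Of probe sets as deposited, 54.8% for WT and 55.9% for *Fbln5-/-* were under 100, which limits what can be seen of rare cells.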
